A study of Arabidopsis thaliana with 9 samples.

Results

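Transcripts of 9 Arabidopsis thaliana genes that restrain or carry out programmed cell death were followed in rosette leaves of the accession Col-0. The genes were taken by locus identifier as known regulators and executioners of cell death, with earlier results of these data known, and all 9 were among the 33610 genes listed in the count files and among the 22019 tested. They are the metacaspase genes MC1, MC2 and MC4, the suppressor genes LSD1, BI-1, BAP1 and BAP2, and the vacuolar processing enzyme genes alpha-VPE and gamma-VPE. BAP2 reached the count asked for by the filter through the Alternaria group alone, where 3 of 3 libraries were above it, against 0 of 3 mock and 1 of 3 untreated libraries. The other 8 passed it in every library. Because BAP2 passed through the Alternaria group alone, its tests of Alternaria leaves are given no weight. It stays in the counts of genes called below.

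The series has 3 groups of 3 libraries. The Alternaria group came from plants sprayed with spores of Alternaria brassicicola strain MUCL 20297, at 1000000 spores per ml in 0.01% Silwet L 77, and its leaves were taken 3 days later. The mock group was mock treated, with the content of its spray and its harvest time not stated in the labels, and the untreated group received no spray. All plants were 5 to 6 weeks old and grew on soil at 22 °C and high humidity with 8 h of light. The labels call the libraries biological replicates, and how many plants went into each is not given. A whole rosette leaf mixes killed, infected and uninfected cells, so fewer cells of a type and less RNA per cell cannot be told apart in any value below.

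Alternaria brassicicola is a necrotroph, a fungus that kills plant cells and feeds on the remains, so genes that hold back or drive plant cell death are of interest in leaves it has entered. Metacaspases are cysteine proteases distantly related to animal caspases. MC1 promotes the death of cells at sites of immune recognition, MC2 counteracts it, and MC4, of a second structural type, is activated by calcium in damaged cells. LSD1 is a zinc finger protein whose loss lets lesions spread without stopping. BI-1, related to the animal BAX inhibitor, sits in the membrane of the endoplasmic reticulum and suppresses cell death. BAP1 and BAP2 are small C2-domain proteins that bind copines of the BON family and restrain cell death. Vacuolar processing enzymes are cysteine proteases that cleave after asparagine. The alpha and gamma forms belong to vegetative organs, and gamma-VPE takes part in vacuole collapse during the hypersensitive response.

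The sequence before the start of each gene was read from the TAIR10.1 RefSeq assembly, at the start that its annotation gives, because several of these transcripts rose together. WRKY factors, a family of defence regulators, bind the W-box. In a window of 250 bases before the start, the W-box letters TTGACC or TTGACT, searched on both strands, occur in 28.4% of 27443 nuclear protein-coding genes. They occur in 4 of the 9 windows, with 2 matches before MC2 and 1 each before BAP2, gamma-VPE and alpha-VPE. These 4 are shown 5′ to 3′ on the strand of the gene with the matches in capitals, since they set 3 genes that rose beside 1 whose change did not pass the test:
MC2 (AT4G25110), chr4:12890263-12890512, minus strand: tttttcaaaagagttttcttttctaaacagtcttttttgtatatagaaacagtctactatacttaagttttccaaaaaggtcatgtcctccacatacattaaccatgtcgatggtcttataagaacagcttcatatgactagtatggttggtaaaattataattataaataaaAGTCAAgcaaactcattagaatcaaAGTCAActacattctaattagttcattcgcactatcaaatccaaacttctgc
BAP2 (AT2G45760), chr2:18847836-18848085, minus strand: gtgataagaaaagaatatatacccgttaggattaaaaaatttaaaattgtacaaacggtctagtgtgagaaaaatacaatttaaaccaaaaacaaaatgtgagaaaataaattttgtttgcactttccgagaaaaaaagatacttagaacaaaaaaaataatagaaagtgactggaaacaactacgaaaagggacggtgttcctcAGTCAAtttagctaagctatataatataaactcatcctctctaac
gamma-VPE (AT4G32940), chr4:15903524-15903773, minus strand: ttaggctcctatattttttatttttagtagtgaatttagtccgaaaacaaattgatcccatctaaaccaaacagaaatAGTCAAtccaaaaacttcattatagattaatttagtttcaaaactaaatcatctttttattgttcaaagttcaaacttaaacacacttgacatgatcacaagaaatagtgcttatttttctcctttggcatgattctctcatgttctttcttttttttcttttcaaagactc
alpha-VPE (AT2G25940), chr2:11066185-11066434, minus strand: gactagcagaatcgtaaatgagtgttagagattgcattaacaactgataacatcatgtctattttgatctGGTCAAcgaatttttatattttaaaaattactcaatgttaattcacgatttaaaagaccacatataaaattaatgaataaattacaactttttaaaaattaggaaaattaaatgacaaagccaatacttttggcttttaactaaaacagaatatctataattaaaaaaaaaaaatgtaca
All 5 matches lie on the strand opposite to the gene, so they read AGTCAA or GGTCAA here. In MC2 they begin 77 and 52 bases before the start, in BAP2 45 bases before it, and in gamma-VPE and alpha-VPE 172 and 180 bases before it. The windows of BAP1, BI-1, MC1, MC4 and LSD1 hold none of these letters. The G-box CACGTG, searched alike, occurs 2 times before BI-1 and in none of the other 8 windows, against 6.49% of all windows. A match of letters is a description and does not show that a factor binds there. Positions given below for the genes are those of the same assembly.

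Between 22713147 and 36061529 reads were assigned to genes in a library. At these depths a count of 0 allows up to 3 counts, which is 0.0832 to 0.139 CPM (reads per 1000000, on library sizes scaled by TMM, the trimmed mean of M values) and covers counting error only. Log2 CPM correlated across genes at r = 0.984 to 0.991 within groups (genes are not independent replicates). The 5 mesophyll markers, which define leaf tissue, summed to 21760 to 22801 CPM in Alternaria leaves, 35097 to 38349 CPM in mock leaves and 37913 to 39636 CPM in untreated leaves, and 5 of 5 were lower in Alternaria than in mock leaves. The 5 xylem markers summed to 39.8 to 54.2 CPM, 59.5 to 79.2 CPM and 94.4 to 121.7 CPM in the same 3 groups, with 4 of 5 lower in Alternaria than in mock leaves. The 3 epidermis markers summed to 446 to 487 CPM in Alternaria leaves, 683 to 756 CPM in mock leaves and 835 to 990.1 CPM in untreated leaves, and 3 of 3 fell. Of the guard cell, phloem and dividing cell markers, 2 of 8 rose and 1 fell over mock. Among all tested genes 29.5% were higher and 26.1% lower in Alternaria than in mock leaves. The 3 seed markers stayed at 0.101 to 0.390 CPM in all libraries and were not tested. The part of these marker differences in the results was not tested.

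In Alternaria leaves 8 of the 9 genes rose over mock leaves and 0 fell, and alpha-VPE alone did not pass (edgeR quasi-likelihood test, Benjamini-Hochberg adjusted p under 0.05). Of all 22019 genes tested, 55.6% passed, with 29.5% higher and 26.1% lower (6489 and 5752). Upper-quartile scaling gave 4937 higher and 8114 lower, and moved the median log2 change of all genes by -0.17. The 3 Alternaria and 3 mock libraries did not overlap for the same 8 genes, nor for 63.3% of all genes. The 8 rises held under that scaling and under each of the other 16 alternatives. The median log2 change of the 9 genes was 1.24, against -0.02 over all genes. The steepest rises over mock were those of BAP2 and BAP1, followed by MC2, the metacaspase known to counteract MC1. The other suppressor genes, BI-1 and LSD1, rose by 1.70 and 0.57 on the log2 scale. Over untreated leaves the rise of MC2 (4.46) was larger than that of BAP1 (3.29). Changes of at least 2-fold upward over mock were made by 6 of the 9 genes and by 11.7% of all genes. MC1 was only just among the 6, at a log2 change of 1.01. It measured 0.83 under upper-quartile scaling, 0.98 with a minimum count of 50 and 0.99 in the 6-library fit. These counts, the median and the order of the rises include BAP2, whose test is given no weight.

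**Figure D1:**
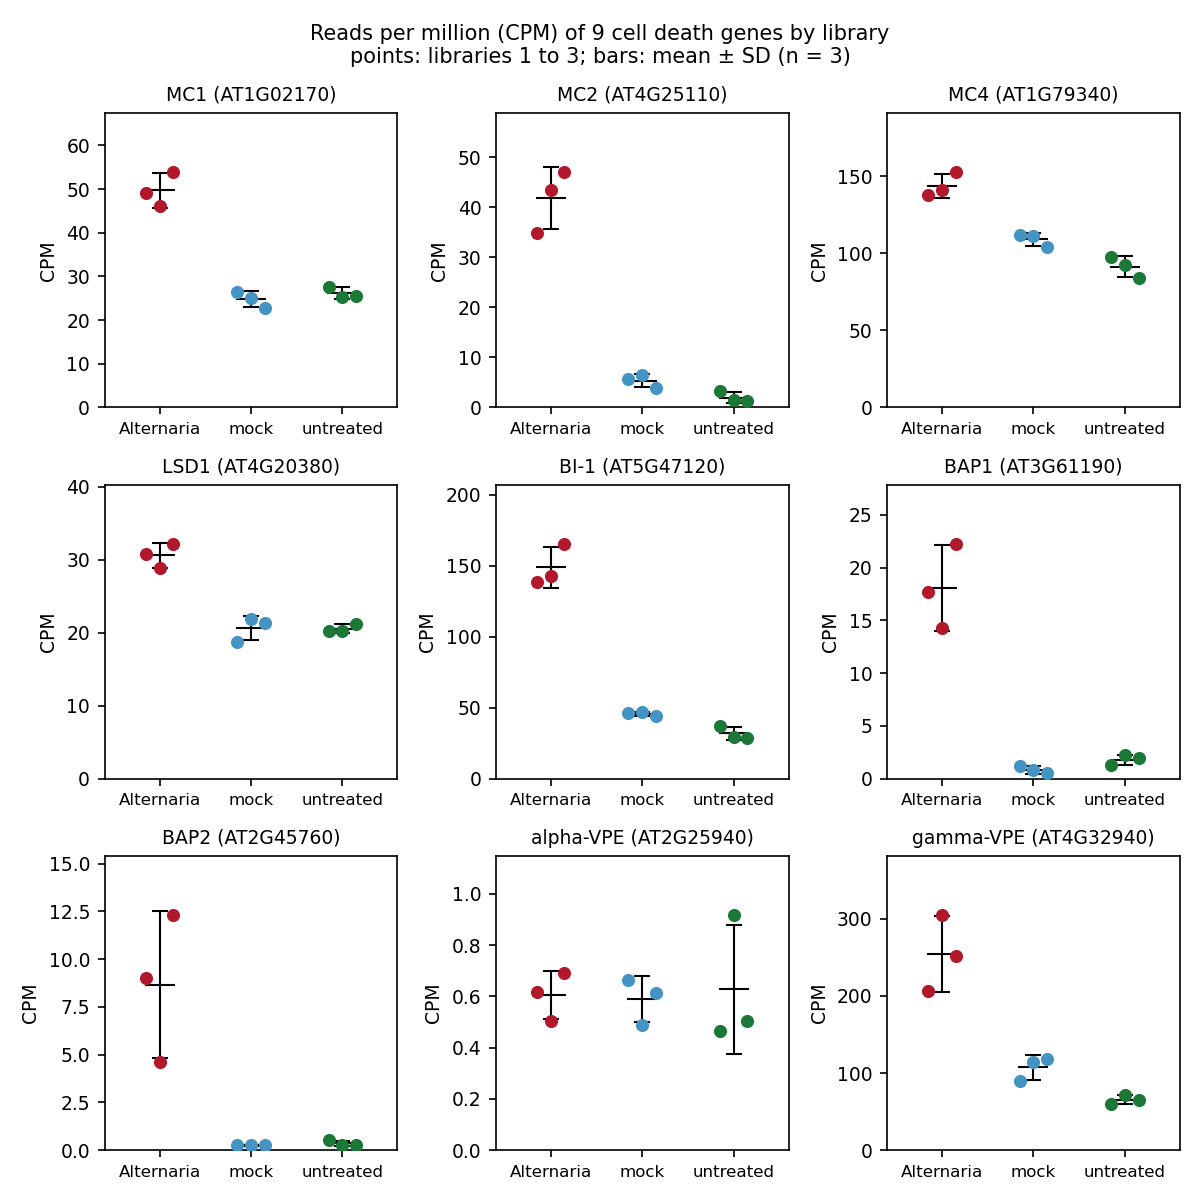
CPM (linear axis from 0) of each of the 9 genes in the Alternaria, mock and untreated groups, with points for the 3 libraries of a group and black bars for the mean ± SD. In 8 of 9 panels the Alternaria points lie above all mock and untreated points, and in the alpha-VPE panel the 3 groups overlap.

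Among the suppressors, BAP1 (AT3G61190, chr3:22650159-22651636, minus strand) and BAP2 (AT2G45760, chr2:18846944-18847835, minus strand) had few reads in the libraries without the fungus. BAP1 had 17.7, 14.2 and 22.3 CPM in Alternaria leaves, against 1.25, 0.805 and 0.530 CPM in mock leaves and 1.30, 2.23 and 1.92 CPM in untreated leaves. All 3 Alternaria libraries stood far above the 6 others, and mock libraries were the lowest. BAP1 rose 20.8-fold over mock (log2 change 4.38 ± 0.27, SE, edgeR Benjamini-Hochberg adjusted p = 5.9e-08). BAP2 had 9.02, 4.64 and 12.3 CPM in Alternaria leaves, against 0.249, 0.280 and 0.251 CPM in mock leaves and 0.511, 0.295 and 0.293 CPM in untreated leaves. Its Alternaria libraries did not overlap the others but spread widely, with replicate 2 lowest. In reads, that is 321, 138 and 356 in Alternaria libraries and 9, 8 and 9 in mock libraries, so the size of the rise rests on few mock reads. The BAP2 level was 32.9-fold that of mock (log2 change 5.04 ± 0.39). BAP2 passed the filter on low counts through the Alternaria libraries alone, so its test is given no weight here. With 1 Alternaria or mock library left out, the BAP2 log2 change stayed between 4.71 and 5.32. This range describes the same libraries and is given no weight either.

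BI-1 (AT5G47120, chr5:19135952-19138025, plus strand), the membrane suppressor, was well expressed in every group. It had 138.8, 142.5 and 165.5 CPM in Alternaria leaves, against 46.1, 46.8 and 44.3 CPM in mock leaves and 37.4, 29.7 and 28.8 CPM in untreated leaves. The 3 groups were ordered without overlap, Alternaria highest and untreated lowest. BI-1 rose 3.26-fold over mock (log2 change 1.70 ± 0.10, edgeR Benjamini-Hochberg adjusted p = 5.1e-08). LSD1 (AT4G20380, chr4:11004503-11006968, plus strand) moved much less, at 30.8, 28.9 and 32.2 CPM in Alternaria leaves, 18.8, 21.9 and 21.3 CPM in mock leaves and 20.2, 20.2 and 21.3 CPM in untreated leaves. Alternaria libraries were above all others, and mock and untreated libraries overlapped. Its rise over mock was 1.48-fold (log2 change 0.57 ± 0.08, adjusted p = 5.8e-05 in the same edgeR test). Changes of that size or larger were made by 39.0% of all genes. The LSD1 model overlaps AT4G20390 on the same strand over 154 bases, where reads cannot be assigned to either gene.

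The metacaspase genes of opposed roles moved unequally. MC1 (AT1G02170, chr1:411664-413554, plus strand) had 49.1, 46.1 and 53.9 CPM in Alternaria leaves, against 26.4, 25.0 and 22.8 CPM in mock leaves and 27.7, 25.3 and 25.6 CPM in untreated leaves. Only the Alternaria libraries stood apart. MC1 rose 2.01-fold over mock (log2 change 1.01 ± 0.08, edgeR Benjamini-Hochberg adjusted p = 6.0e-07). MC2 (AT4G25110, chr4:12887474-12890262, minus strand) had 34.9, 43.4 and 47.0 CPM in Alternaria leaves, against 5.60, 6.40 and 3.93 CPM in mock leaves and 3.30, 1.38 and 1.21 CPM in untreated leaves. The groups formed 3 steps without overlap, with untreated replicate 1 above the other untreated libraries. MC2 rose 7.90-fold over mock (log2 change 2.98 ± 0.24, adjusted p = 4.3e-07 in the same edgeR test). MC4 (AT1G79340, chr1:29842587-29844638, plus strand) had 137.9, 140.7 and 152.6 CPM in Alternaria leaves, against 112.1, 111.0 and 104.1 CPM in mock leaves and 97.6, 92.4 and 84.0 CPM in untreated leaves. Its groups were ordered the same way, by smaller steps. MC4 rose 1.32-fold over mock (log2 change 0.40 ± 0.07, edgeR Benjamini-Hochberg adjusted p = 5.7e-04), and 52.8% of all genes changed by at least as much.

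Within a library, MC2 and MC1 can be set against each other without any scaling. MC2 had 0.710, 0.942 and 0.872 reads per MC1 read in Alternaria libraries, 0.212, 0.256 and 0.173 in mock libraries and 0.119, 0.0543 and 0.0475 in untreated libraries. The ratio did not overlap between any of the groups. It averaged 0.841 ± 0.119 in Alternaria leaves, 0.213 ± 0.0416 in mock leaves and 0.0736 ± 0.0395 in untreated leaves (SD, n = 3 each). MC4 had 2.90 ± 0.134 reads per MC1 read in Alternaria leaves, 4.42 ± 0.169 in mock leaves and 3.49 ± 0.184 in untreated leaves. Here mock was highest and Alternaria lowest, again without overlap. BAP2 had 0.325 to 0.553 reads per BAP1 read in Alternaria libraries, 0.200 to 0.474 in mock libraries and 0.132 to 0.393 in untreated libraries, and these ranges overlapped.

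**Figure D2:**
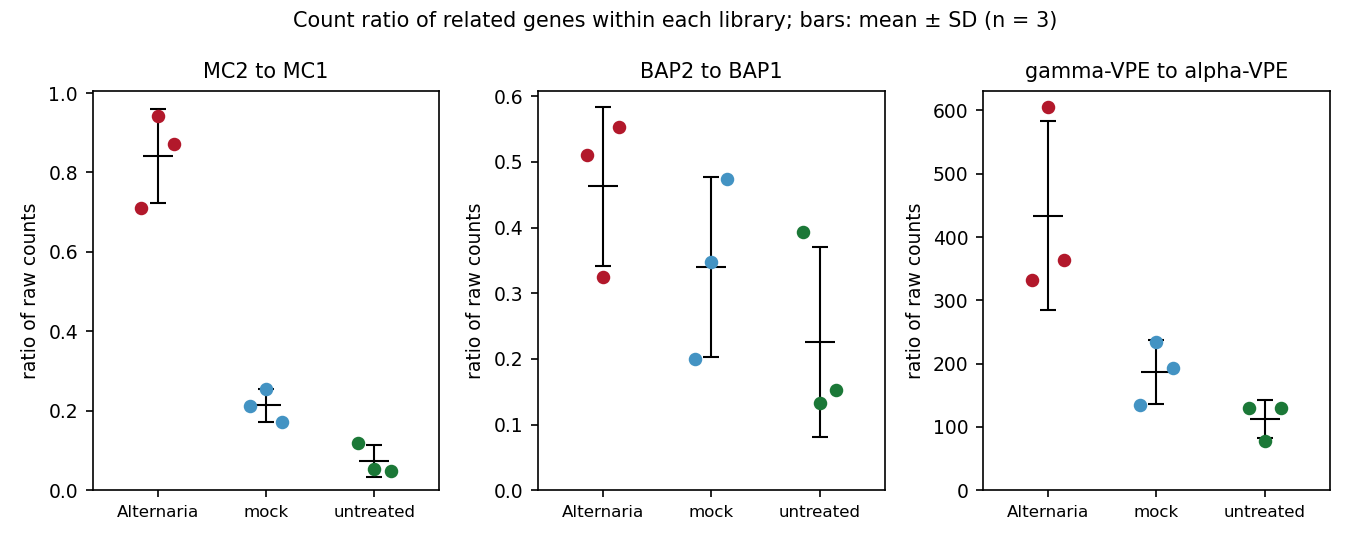
Ratio of raw read counts of related genes within each library, MC2 to MC1, BAP2 to BAP1 and gamma-VPE to alpha-VPE, in the Alternaria, mock and untreated groups (linear axes from 0, points for libraries, bars for mean ± SD, n = 3). The MC2 to MC1 ratio forms 3 separate steps, 0.841, 0.213 and 0.0736 on average, while the BAP2 to BAP1 ratios overlap between groups.

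Of the vacuolar processing enzymes, gamma-VPE (AT4G32940, chr4:15900270-15903523, minus strand) had 205.8, 304.9 and 251.6 CPM in Alternaria leaves, against 89.0, 114.4 and 118.3 CPM in mock leaves and 60.0, 71.1 and 65.5 CPM in untreated leaves. The groups did not overlap, and the Alternaria libraries spread most. It rose 2.37-fold over mock (log2 change 1.24 ± 0.14, edgeR Benjamini-Hochberg adjusted p = 7.6e-06). The other vegetative form, alpha-VPE (AT2G25940, chr2:11063301-11066184, minus strand), had 0.618, 0.504 and 0.692 CPM in Alternaria leaves, against 0.665, 0.490 and 0.613 CPM in mock leaves and 0.464, 0.918 and 0.502 CPM in untreated leaves. All 3 groups overlapped, and untreated replicate 2 was the highest library. These levels rest on 10 to 28 reads in a library. The alpha-VPE log2 change over mock was 0.03 ± 0.34 (adjusted p = 0.953 in the same edgeR test). There were 433.9 ± 149.1 gamma-VPE reads per alpha-VPE read in Alternaria libraries, 186.7 ± 50.1 in mock libraries and 112.4 ± 30.2 in untreated libraries (SD, n = 3 each), without overlap between groups. The lowest mock ratio (133.8) was close to the highest untreated ratio (130.4). With so few alpha-VPE reads, that gap is given no weight. Their coding sequences share 82.8% of aligned bases with a longest identical run of 37 bases, and how many reads were assigned to the wrong copy was not tested.

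**Figure D3:**
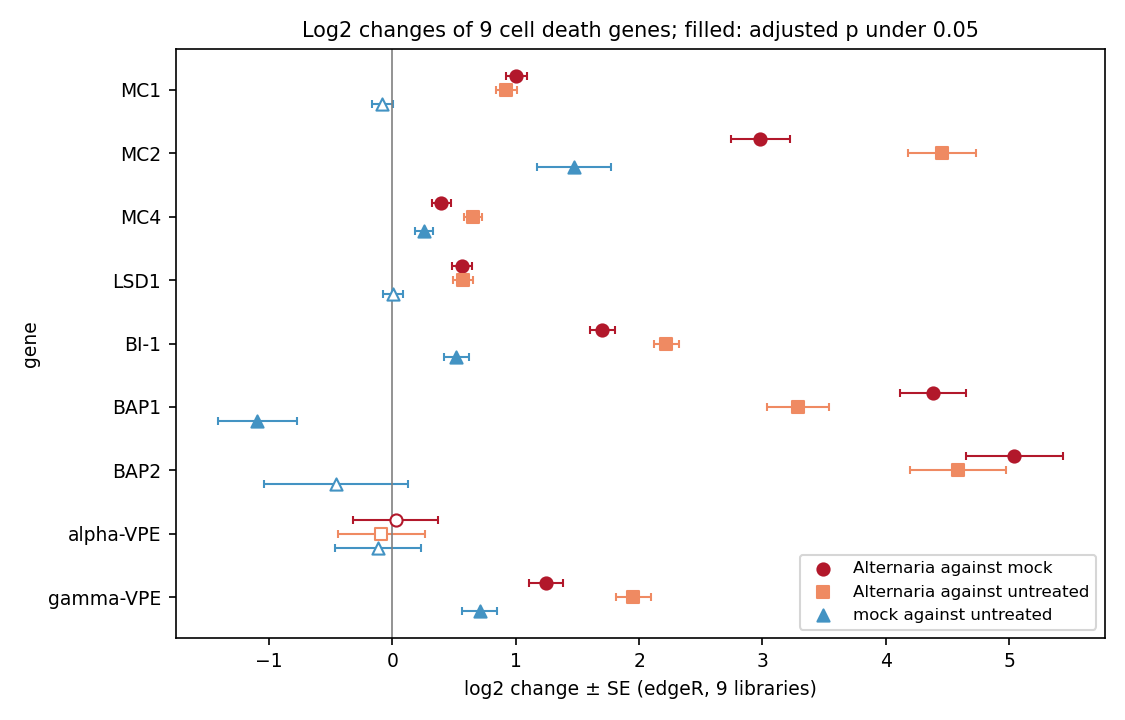
Log2 change ± SE (edgeR, all 9 libraries in 1 fit) of each gene in the 3 pairwise comparisons, with filled symbols for an adjusted p under 0.05. For 8 of 9 genes both Alternaria comparisons lie right of 0, from 0.40 (MC4) to 5.04 (BAP2) against mock, while mock against untreated runs from -1.09 (BAP1) to 1.47 (MC2).

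Mock was also set against untreated, a difference in which the spray, its handling and any difference in harvest time cannot be told apart. MC2, gamma-VPE, BI-1 and MC4 rose, BAP1 fell, and LSD1, MC1, BAP2 and alpha-VPE did not pass. Thus 4 of 9 rose and 1 fell, where 29.3% of all genes passed, 15.1% higher and 14.1% lower (3332 and 3110 genes, or 2119 and 2224 without untreated replicate 2). The mock and untreated libraries did not overlap for these 5 genes and BAP2, nor for 44.7% of all genes. MC2 was 2.78-fold higher in mock leaves (log2 change 1.47 ± 0.30, edgeR Benjamini-Hochberg adjusted p = 0.0035), and only 2.17% of all genes changed by as much. The protease gene gamma-VPE was 1.63-fold higher (0.71 ± 0.14, adjusted p = 0.0028) and the suppressor gene BI-1 was 1.43-fold higher (0.52 ± 0.10, adjusted p = 0.0029), both in that edgeR test. MC4 was 1.19-fold higher (log2 change 0.26 ± 0.08, edgeR Benjamini-Hochberg adjusted p = 0.023). BAP1 was lower in mock leaves, at 0.861 ± 0.362 CPM against 1.82 ± 0.473 CPM in untreated leaves (SD, n = 3 each, log2 change -1.09 ± 0.32, edgeR Benjamini-Hochberg adjusted p = 0.022). Between the same groups, 3 of 3 dividing cell markers were lower in mock leaves (summed 12.5 to 14.2 CPM, against 22.1 to 26.1 CPM in untreated leaves), as were 4 of 5 xylem, 2 of 3 epidermis and 1 of 2 phloem markers, while 2 of 5 mesophyll markers were higher and 1 lower. Their part in the changes of the 9 genes was not tested. The calls of MC4 and BAP1 were each lost in 4 of 9 fits that left out 1 library, as was that of BAP1 in limma-voom (adjusted p = 0.079). The libraries are untreated replicates 2 and 3 and mock replicate 2 for both genes, with mock replicate 1 for MC4 (adjusted p = 0.056 to 0.085 in edgeR) and mock replicate 3 for BAP1 (adjusted p = 0.060 to 0.11 in edgeR).

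The values that did not pass were near 0 for 3 of these 4 genes. LSD1 measured 0.01 ± 0.08 on the log2 scale for mock against untreated, MC1 measured -0.08 ± 0.08 and alpha-VPE -0.12 ± 0.35, with edgeR Benjamini-Hochberg adjusted p-values of 0.961, 0.505 and 0.831. BAP2 measured -0.46 ± 0.58 (adjusted p = 0.588 in edgeR), at 7 to 11 reads in each of these 6 libraries, too few to show a change of this size. BAP1 thus was lower in mock than in untreated leaves and higher in Alternaria than in mock leaves, a pair of calls made for 3.04% of all tested genes. MC2, gamma-VPE, BI-1 and MC4 rose at both steps, as did 6.93% of all tested genes. Both steps share the mock libraries, and the mock against untreated calls of BAP1 and MC4 were each lost in 4 of 9 leave-outs.

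Against untreated leaves the same 8 genes rose in Alternaria leaves and 0 fell, where 64.9% of all genes passed, 33.1% higher and 31.8% lower (7287 and 7001, or 5549 and 9234 under upper-quartile scaling). The groups did not overlap for these 8 genes, nor for 68.6% of all genes. MC2 and BAP2 were highest, 21.9-fold (log2 change 4.46 ± 0.28) and 24.0-fold (4.58 ± 0.39) over untreated. The edgeR Benjamini-Hochberg adjusted p of MC2 was 3.2e-08, and the BAP2 test is given no weight, as above. BAP1 was 9.75-fold higher (3.29 ± 0.25), BI-1 4.67-fold (2.22 ± 0.10) and gamma-VPE 3.87-fold (1.95 ± 0.14). MC1, MC4 and LSD1 rose by 0.92 ± 0.08, 0.65 ± 0.08 and 0.58 ± 0.08 on the log2 scale. The largest adjusted p among these 6 was 4.6e-05 in edgeR, that of LSD1. The value of alpha-VPE was -0.09 ± 0.35 (adjusted p = 0.836 in edgeR). This comparison shares its libraries with the other comparisons and adds no samples to them.

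The authors' deposited table for Alternaria against mock gave adjusted p-values under 0.05 to 8 of the 9 genes, all higher, and to 53.3% of all genes with an adjusted p. The authors' deposited table for Alternaria against untreated did so for the same count, 8 of 9, and for 50.6% of all genes. The authors' deposited table for mock against untreated called 5, with 4 higher and 1 lower, and 29.7% of all genes. For BAP2 the authors' deposited table gave 4.72 ± 0.35 (Alternaria against mock, log2 fold change and its standard error), and for BAP1 4.27 ± 0.23. Across the 9 genes and 3 comparisons the log2 values of the authors' deposited tables and of edgeR had the same sign in 27 of 27 cases, with a largest difference of 0.32.

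Divided by the exon length of each gene, the levels can be set in order. In Alternaria leaves gamma-VPE and BI-1 were highest, at 119.1 ± 23.2 and 114.3 ± 11.1 CPM per kilobase (SD, n = 3), with ranges that overlapped. Below them, without overlap, came MC4 at 80.3 ± 4.35 and MC1 at 34.2 ± 2.71 CPM per kilobase. MC2 (22.8 ± 3.40) and LSD1 (18.4 ± 1.01 CPM per kilobase) overlapped, as did BAP1 (12.9 ± 2.88) and BAP2 (9.71 ± 4.32 CPM per kilobase), and alpha-VPE was lowest at 0.337 ± 0.0528 CPM per kilobase.

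In mock leaves MC4 led at 61.0 ± 2.43 CPM per kilobase. It was followed by gamma-VPE (50.2 ± 7.44), BI-1 (35.1 ± 0.998), MC1 (17.0 ± 1.28), LSD1 (12.4 ± 0.995) and MC2 (2.90 ± 0.689 CPM per kilobase), each without overlap with the next. BAP1 (0.615 ± 0.259), alpha-VPE (0.328 ± 0.0502) and BAP2 (0.292 ± 0.0193 CPM per kilobase) closed the order, the last pair with overlapping ranges. Untreated leaves were again led by MC4, at 51.1 ± 3.84 CPM per kilobase, and gamma-VPE (30.7 ± 2.60) and BI-1 (24.5 ± 3.61 CPM per kilobase) overlapped there. MC1 (18.0 ± 0.889) and LSD1 (12.3 ± 0.368 CPM per kilobase) were next, without overlap. BAP1 (1.30 ± 0.338) and MC2 (1.07 ± 0.633 CPM per kilobase) overlapped, as did BAP2 (0.411 ± 0.140) and alpha-VPE (0.350 ± 0.140 CPM per kilobase). MC2 thus ranked below LSD1 in mock and untreated leaves. In Alternaria leaves it was above LSD1 within 3 of 3 libraries, as BAP1 was above BAP2, though the ranges over libraries overlapped. The LSD1 level may be understated, because reads in the 154 bases it shares with AT4G20390 cannot be assigned. The order of MC2 and LSD1 in Alternaria leaves is therefore uncertain.

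**Figure D4:**
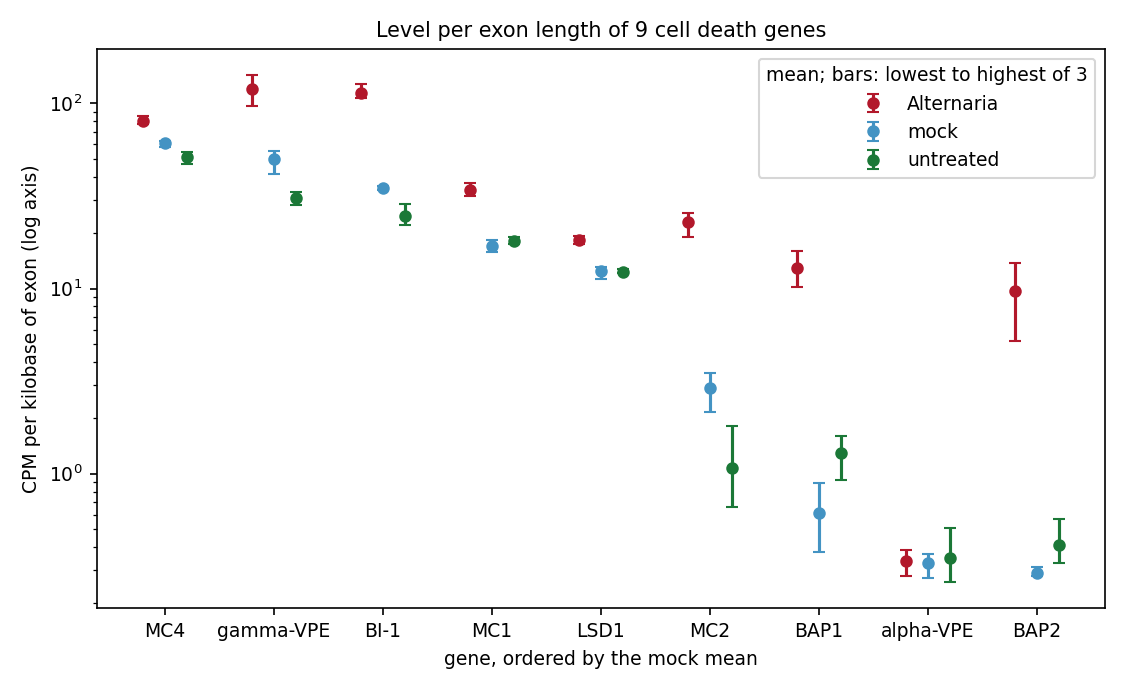
CPM per kilobase of exon (log axis) of the 9 genes in Alternaria, mock and untreated leaves, ordered by the mock mean, with points for means and bars from the lowest to the highest of 3 libraries. The groups lie close together for MC4 (80.3, 61.0 and 51.1), LSD1 and alpha-VPE, further apart for gamma-VPE (119.1, 50.2 and 30.7) and BI-1 (114.3, 35.1 and 24.5), and furthest apart for MC2, BAP1 and BAP2.

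The spread between replicates also differed among the genes. The biological coefficient of variation fitted by edgeR was 0.0719 for LSD1, 0.0741 for MC4 and 0.0760 for MC1, above 14.2%, 18.2% and 21.7% of tested genes. It was 0.264 for BAP2, above 91.4% of tested genes, and 0.214 for MC2, 0.191 for alpha-VPE and 0.188 for BAP1. BI-1 (0.0924) and gamma-VPE (0.125) lay between.

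For BAP2 and MC2, whose group means spanned the widest ranges of log2 CPM (4.63 and 4.50), the genes of most similar course over the 9 libraries were sought. Closest to MC2 were HR3 (AT3G50470, r = 0.999), a homologue of the RPW8 resistance genes, the wall-associated kinase gene WAK3 (AT1G21240, r = 0.998) and the amino acid transporter gene AAT1 (AT4G21120, r = 0.998). HR3 averaged 24.9 ± 4.90 CPM in Alternaria leaves, 3.96 ± 0.748 CPM in mock leaves and 1.46 ± 0.788 CPM in untreated leaves, and like MC2 it formed 3 steps. Closest to BAP2 were AT2G45500 (r = 0.995), AT1G10050 (r = 0.995) and the myosin gene XIA (AT1G04600, r = 0.995), all high in Alternaria leaves and nearly level between mock and untreated leaves. XIA averaged 10.1 ± 1.97 CPM in Alternaria leaves, 1.12 ± 0.0936 CPM in mock leaves and 1.22 ± 0.174 CPM in untreated leaves. The 9 libraries share 3 group levels, and 8.31% of tested genes reached r above 0.95 with MC2 and 6.22% with BAP2.

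The wider families were then read from the same fit. Of 57 genes in 8 related lists 50 were tested, and 29 of these were higher and 8 lower in Alternaria than in mock leaves, with a median log2 change of 0.58 (all genes: -0.02, 29.5% higher, 26.1% lower). The 29 include BON3 and SAG12, whose tests are given no weight below. Of the other 6 metacaspase genes 4 were tested, and 3 rose (2 under upper-quartile scaling). MC8 (AT1G16420), a type II metacaspase linked to oxidative stress, had 10.2, 9.10 and 16.4 CPM in Alternaria leaves, against 1.52, 0.700 and 0.920 CPM in mock leaves and 1.63, 1.21 and 0.837 CPM in untreated leaves. Only the Alternaria libraries stood apart, and MC8 rose by 3.47 ± 0.30 on the log2 scale over mock (edgeR Benjamini-Hochberg adjusted p = 8.7e-07). MC3 (AT5G64240) and MC7 (AT1G79310) rose by 0.84 ± 0.14 and 0.74 ± 0.25 (adjusted p = 2.4e-04 and 0.024 in edgeR). MC9 (AT5G04200), which clears the remains of dead xylem vessels, measured -0.23 ± 0.15 and did not pass (adjusted p = 0.235 in edgeR). MC5 (AT1G79330) and MC6 (AT1G79320) had 6 to 11 and 0 to 13 reads in a library and were not tested. In the TAIR10.1 annotation AT1G09985, on the other strand, covers 1725 bases of the MC5 model, so with the strand setting unknown the MC5 count is uncertain. They stand beside MC4 and MC7 on chromosome 1. The coding sequences of MC4 and MC5 share 75.6% of aligned bases with a longest identical run of 23 bases.

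The remaining 2 processing enzyme genes did not pass, though 1 was called lower under upper-quartile scaling. The form known from seeds, beta-VPE (AT1G62710), had 21.3 ± 2.69 CPM in Alternaria leaves, 26.5 ± 6.09 CPM in mock leaves and 16.7 ± 4.90 CPM in untreated leaves (SD, n = 3 each), with a log2 change of -0.32 ± 0.19 over mock (edgeR Benjamini-Hochberg adjusted p = 0.172). The seed coat form delta-VPE (AT3G20210) measured -0.70 ± 0.58 (adjusted p = 0.327 in edgeR) at 0.224 ± 0.157 CPM in Alternaria leaves and 0.362 ± 0.219 CPM in mock leaves. In mock against untreated leaves beta-VPE passed (0.68 ± 0.19, adjusted p = 0.020 in edgeR), with libraries that overlapped between the groups.

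The copines, to which BAP1 and BAP2 bind, were measured in part. BON2 (AT5G07300) rose by 0.62 ± 0.07 on the log2 scale over mock, at 86.7 ± 2.52 CPM in Alternaria leaves and 56.2 ± 1.99 CPM in mock leaves (SD, n = 3 each, edgeR Benjamini-Hochberg adjusted p = 4.9e-06). BON3 (AT1G08860) had 15, 13 and 30 reads in Alternaria libraries, 0, 3 and 2 reads in mock libraries and 0, 2 and 0 reads in untreated libraries, and passed the filter on low counts through the Alternaria libraries alone, so its test is given no weight here. BON1 (AT5G61900) had 0 reads in all Alternaria and mock libraries and 1 to 4 reads in untreated libraries. In the TAIR10.1 annotation its whole model of 3681 bases lies inside AT5G61910 on the same strand, so reads there could not be assigned to BON1 alone.

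Among the other genes with a BAX inhibitor motif, 3 of 4 tested rose over mock, where 29.5% of all genes did. AT5G47130, a close copy of BI-1, rose by 1.77 ± 0.22, LFG2 (AT3G63310) by 1.12 ± 0.12 and LFG5 (AT4G15470) by 0.53 ± 0.08 on the log2 scale, with a largest edgeR Benjamini-Hochberg adjusted p of 1.3e-04. AT5G47130 stayed at 2.45 to 2.91 CPM in Alternaria leaves, and its coding sequence shares 75.9% of aligned bases with BI-1. Among LSD1-like genes and LSD1 partners, LOL2 (AT4G21610) rose by 1.12 ± 0.22 and LOL1 (AT1G32540), a positive regulator of cell death, measured -0.08 ± 0.14 (adjusted p = 7.1e-04 and 0.649 in edgeR). The catalase genes, whose products remove hydrogen peroxide, split. CAT1 (AT1G20630) and CAT3 (AT1G20620) rose by 1.36 ± 0.10 and 1.15 ± 0.14, whereas CAT2 (AT4G35090), the photorespiratory catalase, fell (-0.69 ± 0.10), with a largest adjusted p of 5.4e-05 in edgeR.

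**Figure D5:**
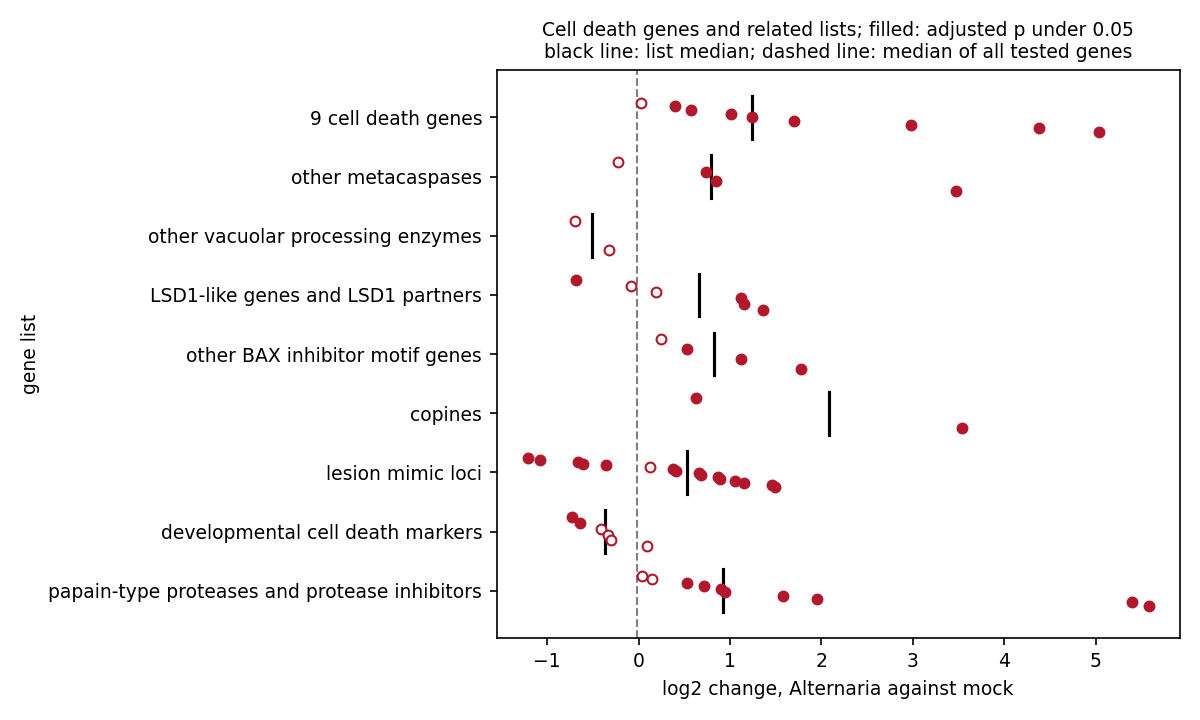
Log2 change for Alternaria against mock of the 9 genes and of 50 tested genes in 8 related lists, 1 point per gene, filled where the adjusted p is under 0.05, with a black line at each list median and a dashed line at the median of all tested genes (-0.02). The 9 genes have a median of 1.24, the developmental cell death markers lie at or left of the dashed line except for 1 gene, and the lesion mimic loci lie on both sides.

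Lesion mimic loci, at which mutation causes spontaneous dead patches, went both ways, with 10 of 16 higher and 5 lower than in mock leaves. CAD1 (AT1G29690) and NSL1 (AT1G28380), related proteins with a membrane attack complex and perforin domain that limit cell death, rose by 1.49 ± 0.11 and 1.15 ± 0.10 on the log2 scale. ERH1 (AT2G37940), an enzyme of sphingolipid synthesis, rose by 1.46 ± 0.10. MIPS1 (AT4G39800), which makes the precursor of myo-inositol, fell (-1.21 ± 0.10). The largest edgeR Benjamini-Hochberg adjusted p of these 4 was 8.2e-07. CAD1 and NSL1 were lower in mock than in untreated leaves (-0.43 ± 0.11 and -0.59 ± 0.10, adjusted p = 0.011 and 0.0010 in edgeR). Over untreated leaves they rose by 1.06 ± 0.11 and 0.56 ± 0.10. Of 6 tested markers of developmental cell death 0 rose over mock and 2 fell (4 under upper-quartile scaling). Of all genes 29.5% rose and 26.1% fell, and whether the list differs from other genes was not tested. The protease genes PASPA3 (AT4G04460) and SCPL48 (AT3G45010) fell (-0.73 ± 0.19 and -0.64 ± 0.07, adjusted p = 0.0056 and 9.1e-06 in edgeR), and the nuclease gene BFN1 (AT1G11190) measured -0.41 ± 0.22 (adjusted p = 0.128 in edgeR). Several of these markers are also xylem genes, and 4 of 5 xylem markers fell too, whose part in these values was not tested.

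In the list of papain-type proteases and protease inhibitors 8 of 10 genes rose and 0 fell, where 29.5% of all genes rose. The 8 include SAG12, whose call is given no weight. The inhibitor genes SERPIN1 (AT1G47710) and CYS1 (AT5G12140) measured 0.15 ± 0.07 and 0.04 ± 0.10 on the log2 scale and did not pass (adjusted p = 0.110 and 0.749 in edgeR). SAG12 (AT5G45890), a protease gene and marker of age-related senescence, had 104, 120 and 147 reads in Alternaria libraries, 3, 2 and 3 reads in mock libraries and 2, 4 and 1 reads in untreated libraries. SAG12 passed the filter on low counts through the Alternaria libraries alone, so its test is given no weight here. KTI1 (AT1G73260), a Kunitz trypsin inhibitor that restrains pathogen-induced cell death, had 94.0, 134.1 and 214.9 CPM in Alternaria leaves, against 3.10, 2.34 and 4.93 CPM in mock leaves and 2.09, 1.02 and 1.17 CPM in untreated leaves. The inhibitor gene rose by 5.39 ± 0.33 over mock, and CATHB3 (AT4G01610), a cathepsin B protease gene, and RD19A (AT4G39090) rose by 1.95 ± 0.11 and 1.58 ± 0.16, with a largest adjusted p of 3.2e-06 in edgeR.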

How the data were processed

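The 9 genes and the lists were chosen with earlier results of these data known, so no count over them is independent evidence. Messenger RNA of 9 libraries (3 per group) was sequenced. The submitters' processing notes name FastQC, TopHat2 2.0.12, the TAIR10 build, HTSeq and, for the comparisons, DESeq2 1.8.2. For HTSeq, the version, annotation release and strand setting were not given in the sources used here, so reads where genes overlap are uncertain. The authors deposited raw counts per gene. Their 3 deposited tables of comparisons give log2 values with standard errors and adjusted p-values, as named in the file headers, positive where the group named second in the header is higher. The p-values set a difference between groups against the spread between these libraries.

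Lines that name no gene (7.73 to 11.2% of a library) were left out. Genes were kept by filterByExpr with a minimum count of 10, scaled by TMM, and modelled in edgeR 4.0.16 (R 4.3.3) over all 9 libraries with a mean for each group, which leaves 6 degrees of freedom. Comparisons used the quasi-likelihood F test with Benjamini-Hochberg adjustment over all 22019 genes and a threshold of 0.05. Standard errors were taken as the size of a log2 change over the root of its F value. For correlations, CPM were put on the log2 scale with a prior count of 2. The procedure was tested on simulated counts. Named genes are the 9, every other metacaspase, processing enzyme and copine gene, up to 4 genes of each list with the largest change for Alternaria against mock among those past the threshold without overlap, and the 3 closest in course to each of 2 genes. LOL1, BFN1, SERPIN1 and CYS1 lie outside that rule and were named after their values were seen. Gene names, exon lengths, promoters and coding sequences came from the RefSeq TAIR10.1 assembly and annotation, with Biopython 1.88 for alignment. DESeq2 1.42.0 and limma 3.58.1 served as alternatives, beside other scalings, filters, 6-library fits, a replicate block and 9 leave-outs.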

Additional observations from a re-analysis of the deposited data

How the results depend on the processing

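In both Alternaria comparisons, 8 of the 9 genes were called, all higher, in each of 17 alternatives: RLE or upper-quartile scaling, no filter, a minimum count of 50, DESeq2, limma-voom, 6-library fits, a replicate block and 9 leave-outs. The 8 include BAP2, whose calls are given no weight. For mock against untreated, 5 were called, 4 in limma-voom and 3 to 5 with 1 library left out (3 without untreated replicate 2, untreated replicate 3 or mock replicate 2), and the calls lost were those of BAP1, MC4 or both. The causes of these lost calls were not tested. Genes called over the whole table ranged from 10824 to 12570 (Alternaria against mock), 12972 to 14286 (Alternaria against untreated) and 4343 to 6644 (mock against untreated) with 1 library left out, against 12241, 14288 and 6442. Without untreated replicate 2 4343 genes were called. Upper-quartile scaling gave 5549 higher and 9234 lower for Alternaria against untreated, against 7287 and 7001, and moved the median log2 change of all genes by -0.20.

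Among the 9 genes, signs turned only for values that passed no test. alpha-VPE measured -0.15 for Alternaria against mock under upper-quartile scaling and -0.10 to 0.12 with 1 library left out, -0.25 to 0.32 for Alternaria against untreated and -0.28 to 0.29 for mock against untreated. LSD1 in mock against untreated measured -0.015 under upper-quartile scaling, -0.021 with a minimum count of 50, and -0.025 to 0.083 with 1 library left out. alpha-VPE was not tested with a minimum count of 50.

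The replicate numbers are shared between groups, but the deviations of same-numbered libraries correlated at -0.0652 to 0.0341. A library correlated best with its own number in 2 of 18 cases. No pairing by number was seen, which does not exclude one, and the main fit used none. With a replicate block 11940, 6020 and 13942 genes were called for Alternaria over mock, mock over untreated and Alternaria over untreated, with 8, 5 and 8 of the 9 genes among them.

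Depth limits alpha-VPE and, outside Alternaria leaves, BAP2 and BAP1. For mock against untreated, BAP1 passed at -1.09 ± 0.32 (adjusted p = 0.022 in edgeR). With 1 library left out it measured -1.48 to -0.82, and its call was lost in 4 of 9 leave-outs. BAP2 (-0.46 ± 0.58) and alpha-VPE (-0.12 ± 0.35) did not pass. The smallest detectable change of these genes was not tested.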
